A study of Mus musculus with 9 samples.

Results

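A set of 10 genes that macrophages express in repair-type or alternatively activated states were followed in RNA sequencing of mouse cells sorted as retinal ganglion cells (RGCs) after optic nerve crush (ONC). The genes were chosen by name as Arg1, Saa3, Spp1, Chil3, Mrc1, Gpnmb, Lgals3, Fn1, Thbs1 and Msr1. Of these 10 genes, 8 were among the 15228 genes in the table, and Chil3 and Mrc1 were not analysed here. The mice were wild-type C57BL/6J animals of 6 to 8 weeks. The 3 groups were uninjured retinas (Ctrl), retinas 3 d after ONC with an intraocular injection of PBS (ONC), and retinas 3 d after ONC injected with 3 μL of the zinc chelator TPEN at 100 μM right after the injury (TPEN). Each group had 3 libraries, and the sources used here do not give whether separate mice stood behind the libraries of 1 group, so that the p-values measure the spread between these libraries, which may be technical. Cells were sorted as positive for CD90.2, a surface protein of RGCs, and negative for CD48, CD15 and CD57. CD48 is a surface protein that most leukocytes carry.

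Macrophages respond to interleukins, dying cells and injured matrix by changing which genes they express. Arginase 1 takes arginine away from nitric oxide synthase and turns it into ornithine and urea, and in mice it is a widely used marker of alternative activation by interleukin 4 or interleukin 13. Osteopontin, GPNMB and galectin-3 are made by phagocytes that clear debris, and in the injured central nervous system they also mark activated microglia. Fibronectin and thrombospondin 1 are matrix glycoproteins that macrophages lay down during wound repair. None of these genes belongs to macrophages alone, since fibroblasts, glia and endothelial cells make several of them.

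The sorted cells contained RNA of many retinal cells. The summed level of 9 rod markers ranged from 17360 to 20310 RPKM (reads per kilobase of exon, scaled to library size) over the 9 libraries, and 11 listed RGC markers summed to 371.9 to 381.9 RPKM in Ctrl, 396 to 418 RPKM in ONC and 310.1 to 323.7 RPKM with TPEN. Nefl made up most of the RGC sum, with means of 257.7, 264.5 and 197.9 RPKM in Ctrl, ONC and TPEN. Single RGC markers went both ways. Gap43 had means of 7.79, 23.96 and 19.65 RPKM, Nefh 31.08, 24.61 and 22.47 RPKM, and Rbpms 0.605, 0.393 and 0.319 RPKM. Markers of cones moved as well, and 7 of 7 were upregulated in TPEN/ONC, with sums of 131 to 137 RPKM in Ctrl, 113 to 121 RPKM in ONC and 202 to 205 RPKM with TPEN. Myeloid RNA was present as well. The summed level of 15 listed pan-macrophage markers was 8.77 to 10.6 RPKM in Ctrl, 115 to 117 RPKM in ONC and 55.1 to 57.5 RPKM with TPEN. The sum in ONC was 12.3-fold that of Ctrl and 2.05-fold that of TPEN (exact permutation test over 3 groups, p = 0.00357, n = 3 per group). Of these markers, Cd14 was without reads in at least 1 Ctrl library, and no marker was at 0 in an ONC or TPEN library. For 10 listed microglia markers the sum was 6.23 to 6.93 RPKM in Ctrl, 26.3 to 27.4 RPKM in ONC and 19.8 to 21.7 RPKM with TPEN. Of the neutrophil markers only Csf3r was listed, at 0.124 to 0.223 RPKM in Ctrl, 0.989 to 1.13 RPKM in ONC and 0.250 to 0.511 RPKM with TPEN. Among other cells that can make these proteins, 4 listed astrocyte markers summed to 15.1 to 16.3 RPKM in Ctrl, 34.4 to 36.6 RPKM in ONC and 27.3 to 29.5 RPKM with TPEN. Gfap carried most of that rise (means of 2.79, 22.2 and 14.4 RPKM), while Aqp4 was lower in ONC (9.60, 7.66 and 9.44 RPKM). Only 3 fibroblast and pericyte markers were listed, at 1.11 to 1.20, 0.959 to 1.16 and 0.877 to 0.929 RPKM, and 2 endothelial markers, at 10.8 to 11.6, 12.99 to 13.14 and 14.2 to 15.2 RPKM. The part of these cells in the results below was not tested beyond the ratios to myeloid markers given there. In bulk libraries, fewer cells of a type and less RNA per cell cannot be told apart.

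Promoter windows from RefSeq (GRCm38.p6) were at hand for 4 of the genes, Saa3, Spp1, Gpnmb and Lgals3. Those of Saa3, Spp1 and Lgals3 are shown because these 3 genes were upregulated in ONC against Ctrl and their windows held a searched motif. Each run holds the 250 bases before an annotated RefSeq start, 5′ to 3′ on the strand of the gene, and capitals mark the letters that matched a searched motif on either strand. This start need not be that of the counted gene. The window of Lgals3 lies inside the counted gene, which spans 47367751 to 47386160.
Saa3 (chr7:46715677-46715926, minus strand): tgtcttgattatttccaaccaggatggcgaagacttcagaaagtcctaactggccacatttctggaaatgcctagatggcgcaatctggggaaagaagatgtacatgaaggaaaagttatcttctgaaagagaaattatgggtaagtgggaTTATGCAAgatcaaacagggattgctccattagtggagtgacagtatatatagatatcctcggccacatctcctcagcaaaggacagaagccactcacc
Spp1 (chr5:104434861-104435110, plus strand): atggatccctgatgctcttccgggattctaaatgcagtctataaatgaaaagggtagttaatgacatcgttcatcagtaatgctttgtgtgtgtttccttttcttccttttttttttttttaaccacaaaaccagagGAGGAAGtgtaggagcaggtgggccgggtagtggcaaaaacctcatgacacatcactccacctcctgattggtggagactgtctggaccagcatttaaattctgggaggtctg
Lgals3 (chr14:47373610-47373859, plus strand): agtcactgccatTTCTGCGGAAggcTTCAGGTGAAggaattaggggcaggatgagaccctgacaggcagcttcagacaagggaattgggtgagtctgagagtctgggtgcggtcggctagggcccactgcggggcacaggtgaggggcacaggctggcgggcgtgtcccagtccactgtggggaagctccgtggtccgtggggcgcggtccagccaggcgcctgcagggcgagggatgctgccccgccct
The capitals of Saa3 match the C/EBP motif TTGCNNAA, with its first base at -99 from the start. Those of Spp1 match the ETS/PU.1 motif GAGGAAG, at -113. Lgals3 held 2 matches to the STAT6 motif, TTC and GAA with 4 bases between, at -238 and -225. The C/EBP letters were in 9.56% of all 32851 windows of this length, the ETS/PU.1 letters in 10.6% and the STAT6 letters in 5.85%. The other letters searched were those of AP-1 (TGACTCA, 4.46% of windows), NF-kB (GGG and TTCC with 3 bases between, 4.65%), STAT3 (TTC and GAA with 3 bases between, 7.02%) and CRE (TGACGTCA, 1.55%). The E-box (CACGTG, 6.02%), the hypoxia element (ACGTG, 16.6%, part of some E-boxes) and the metal response element (TGCACTC, 2.52%) were searched too. None of these other letters matched in the 3 windows, and none of the 10 motifs matched in the window of Gpnmb. A second annotated start of Spp1 held the C/EBP letters at -156. A match describes letters and is not evidence of binding.

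All genes were expressed at low levels in uninjured retinas. Arg1, the gene of arginase 1 (chromosome 10, 24915208 to 24927470, GRCm38), had 0.333, 0.264 and 0.236 RPKM in the 3 Ctrl libraries, or 11, 9 and 7 reads. In ONC it had 39.3, 38.8 and 39.1 RPKM, or 1333, 1316 and 1325 reads. In TPEN it had 1.05, 1.13 and 0.951 RPKM, or 31, 37 and 28 reads. The ONC libraries were far above all others, and each TPEN library was above each Ctrl library. Its rank by level among the 13566 genes tested moved from 13465 in Ctrl to 1177 in ONC and 12064 in TPEN. The mean in ONC was 141-fold that in Ctrl and 37.4-fold that in TPEN. The SD of the 3 ONC read numbers of Arg1, 8.51 reads, was smaller than the square root of their mean, 36.4 reads, which is the spread that independent counting alone would give. Lgals3 (60, 60 and 52 reads in ONC) shared this. For the other listed genes the SD in ONC was larger than that root, as for Gpnmb (206, 161 and 221 reads). The total reads of the ONC libraries differed by no more than 0.0824%.

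Saa3 encodes serum amyloid A3, an acute-phase protein made by macrophages and other cells in inflamed tissue (chromosome 7, 46711998 to 46715700). It had 6.19, 5.81 and 6.77 RPKM in the ONC libraries, or 371, 348 and 405 reads. None of the 3 Ctrl and none of the 3 TPEN libraries held a read of Saa3. The groups were thus split into ONC on one side and Ctrl and TPEN, both without reads, on the other. Taking 3 reads per library as the most that a count of 0 allows, the level in ONC was at least 118-fold higher than that of Ctrl and at least 112-fold higher than that of TPEN. This floor covers counting error only. At 1 to 20 reads, 64.1% to 70.4% of the read numbers in a library were even, against 48.3% to 51.5% above 1000 reads, as happens where both reads of a fragment are counted, in which case the bounds are too high. The rank of Saa3 in ONC was 6000, next to that of Spp1 at 5995.

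Spp1 encodes osteopontin, a secreted ligand of CD44 and integrins (chromosome 5, 104435118 to 104441050). It had 0.135, 0.210 and 0 RPKM in the Ctrl libraries, 6.78, 5.92 and 6.10 RPKM in ONC and 2.67, 2.13 and 1.89 RPKM with TPEN. The 3 groups did not overlap, and of the listed genes Spp1 kept the highest level in TPEN. Its TPEN mean, 2.23 ± 0.402 RPKM, was 19.4-fold above that of Ctrl and 2.81-fold below that of ONC (SD, n = 3). Spp1 shares 309 exon bases, 18.8% of its exon length, with the listed gene Gm42793 on the same strand, so its reads are uncertain.

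Among the matrix glycoproteins, Fn1, the gene of fibronectin (chromosome 1, 71585520 to 71653200), had 0.458, 0.359 and 0.409 RPKM in Ctrl. It had 3.38, 3.30 and 3.13 RPKM in ONC and 0.981, 0.905 and 0.772 RPKM in TPEN. Every TPEN library lay between the Ctrl and the ONC libraries. A stretch of 292 exon bases of Fn1, 2.5% of its exon length, lies opposite the listed gene Apol7d, and the sources used here do not give whether reads were counted by strand. Thbs1, the gene of thrombospondin 1, which binds CD36 and CD47 and activates latent TGF-β (chromosome 2, 118111876 to 118127133), had 0.0441, 0.0428 and 0.0164 RPKM in the Ctrl libraries, 1.29, 1.23 and 1.46 RPKM in ONC and 0.0824, 0.222 and 0.165 RPKM with TPEN. In Ctrl these were 6, 6 and 2 reads and in TPEN 10, 30 and 20. The ONC mean of Thbs1 was 38.5-fold above that of Ctrl, and the 3 groups did not overlap.

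Galectin-3 is a lectin of phagocytes and GPNMB a membrane glycoprotein of their lysosomes. Lgals3 (chromosome 14, 47367751 to 47386160) had 0.0960, 0.233 and 0.215 RPKM in the Ctrl libraries, 1.41, 1.41 and 1.22 RPKM in ONC and 0.215, 0.291 and 0.540 RPKM with TPEN. Its TPEN and Ctrl libraries overlapped, and both lay below all ONC libraries. Gpnmb (chromosome 6, 49036546 to 49070929) had 0.260, 0.292 and 0.260 RPKM in the Ctrl libraries, 1.38, 1.08 and 1.48 RPKM in ONC and 0.676, 0.802 and 0.439 RPKM with TPEN. It showed no overlap between groups and the smallest rise of the genes tested, with an ONC mean 4.84-fold above that of Ctrl. Msr1, the gene of a class A scavenger receptor for modified lipoproteins and debris (chromosome 8, 39581685 to 39642673), was the lowest of the 8 genes, with a mean of 0.103 RPKM over the 9 libraries. It had 2, 8 and 0 reads in Ctrl, 48, 30 and 26 reads in ONC and 10, 0 and 8 reads in TPEN, or 0.329, 0.206 and 0.178 RPKM in ONC. Again only the ONC libraries stood apart.

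**Figure D1:**
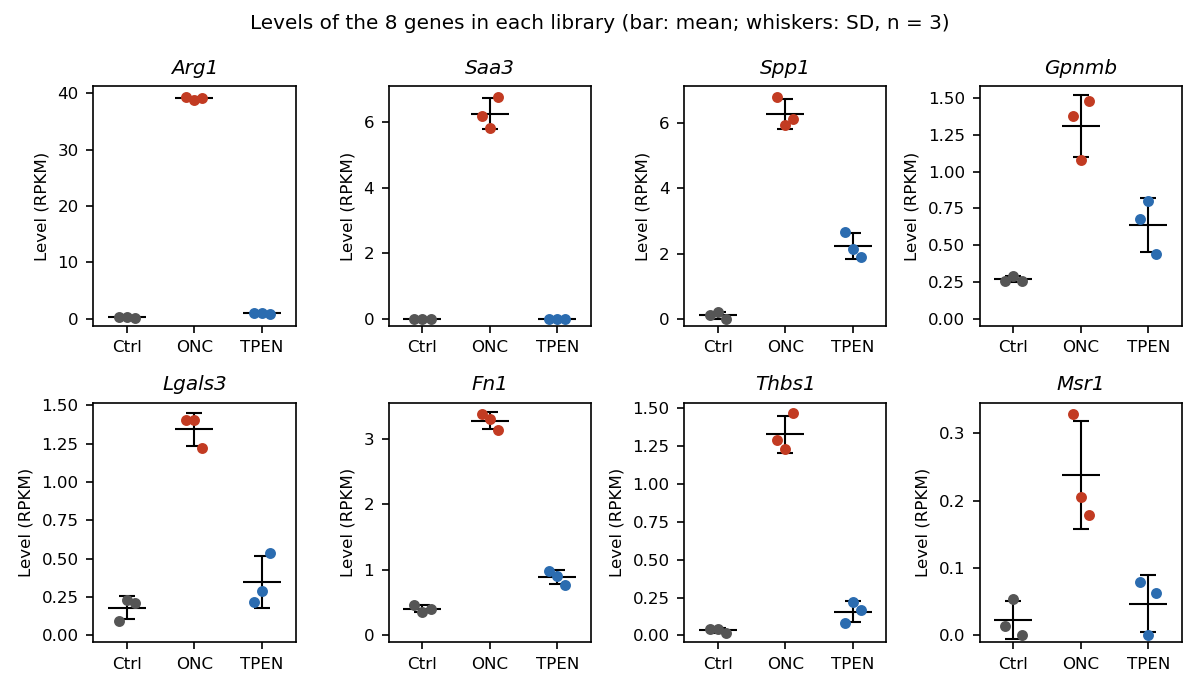
Level in RPKM of the 8 listed genes in each library of Ctrl, ONC and TPEN, 1 panel per gene with its own linear axis. Points are libraries, horizontal bars are means and whiskers are SD (n = 3). In each panel all 3 ONC libraries lie above all others, and the TPEN libraries of Spp1 (mean 2.23 RPKM) stay further above Ctrl than those of Arg1 (mean 1.04 RPKM against 39.1 RPKM in ONC).

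To ask what differed after crush with PBS injection, ONC was compared with Ctrl. The labels call Ctrl a normal control and name no injection for it, so crush and injection cannot be told apart here. Arg1, Saa3, Spp1, Thbs1, Fn1, Lgals3 and Gpnmb, 7 of the 7 genes whose mean reached 0.5 RPKM, were upregulated in ONC/Ctrl. Upregulated stands for a limma adjusted p below 0.05 with a change of 1.5-fold or more, and 4.58% of the 13566 genes tested met it, while 0.752% were downregulated. The count is a description. Each of the 15228 listed genes had 1 RPM (the number of reads scaled to library size) or more in at least 2 of the 9 libraries, and Saa3, Lgals3 and Msr1 met this through ONC alone. Saa3, Lgals3, Thbs1 and Gpnmb, 4 of the 7, also passed the limit on the mean only through ONC, with a mean below 0.5 RPKM over the other 6 libraries, so that genes of this kind had to differ in order to be tested. On the scale of log2(RPKM + 0.1), which understates the changes of low genes, the increase was 6.71 for Arg1 (SE 0.11, limma adjusted p = 1.04e-09) and 5.03 for Spp1 (SE 0.35, adjusted p = 7.47e-06). It was 3.41 for Thbs1 (SE 0.24, adjusted p = 7.88e-06) and 2.73 for Fn1 (SE 0.13, adjusted p = 5.33e-07). Lgals3 rose by 2.40 (SE 0.29, adjusted p = 3.20e-04) and Gpnmb by 1.92 (SE 0.21, adjusted p = 1.58e-04). In a fit without the limit on the mean, Msr1 rose by 1.46 (SE 0.28, adjusted p = 0.00458), a call lost with 1 RPKM added (0.27) and in a test against a fold change of 1.5, and the value reached 3.84 with voom. The median log2 fold change of the 7 genes was 3.41, and that of all genes tested was 0.02. Saa3 counts here with a fitted value that depends on the added 0.1 RPKM, and the median is the same with Saa3 at its bound. In 7 of the 7 genes every ONC library was above every Ctrl library, which held for 20.7% of all genes tested.

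The comparison of TPEN with ONC addresses which changes differed when zinc was chelated. It shares its ONC libraries with the first comparison. Saa3, Lgals3, Thbs1 and Gpnmb passed the limit on the mean only through ONC, which favours a lower level in TPEN, so the counts here are descriptions as well. The same 7 genes were downregulated in TPEN/ONC, against 1.21% of all genes tested, while 0.818% of all genes were upregulated. Arg1 fell by 5.10 on the log2 scale (SE 0.11, limma adjusted p = 8.79e-09) and Thbs1 fell by 2.51 (SE 0.24, adjusted p = 2.92e-04). Fn1 fell by 1.78 (SE 0.13, adjusted p = 4.26e-05) and Lgals3 fell by 1.75 (SE 0.29, adjusted p = 0.00643). Spp1 fell by 1.46 (SE 0.35, adjusted p = 0.0335), and this call was lost when any 1 of the ONC or TPEN libraries was left out, with adjusted p of 0.0605 to 0.113. Gpnmb fell by 0.95 (SE 0.21, adjusted p = 0.0230), a call lost without ONC replicate 1 or 3 or TPEN replicate 1 or 3, with adjusted p of 0.0540 to 0.0869. Without the limit on the mean, Msr1 fell by 1.22 (SE 0.28, adjusted p = 0.0272), and this was lost without ONC replicate 1 or 2 or TPEN replicate 2 or 3, with adjusted p of 0.0563 to 0.0965. The median log2 fold change of the 7 genes was -1.78, and that of all genes tested was -0.01. Every TPEN library was below every ONC library in 7 of the 7 genes and in 15.6% of all genes tested. A test against a fold change of 1.5 in place of no change left 4 of the 7 genes, Arg1, Saa3, Fn1 and Thbs1.

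TPEN was also compared with Ctrl to see what remained above uninjured levels. Spp1, Arg1, Gpnmb, Fn1 and Thbs1, 5 of the 7 genes, were upregulated, against 3.45% of all genes tested. The increase was 3.57 for Spp1 on the log2 scale (SE 0.35, limma adjusted p = 1.22e-04), 1.60 for Arg1 (SE 0.11, adjusted p = 1.16e-05), 0.96 for Gpnmb (SE 0.21, adjusted p = 0.0133) and 0.95 for Fn1 (SE 0.13, adjusted p = 9.44e-04). For Thbs1 it was 0.90 (SE 0.24, adjusted p = 0.0339). The call of Thbs1 was lost without any single library other than TPEN replicate 1 (adjusted p of 0.0530 to 0.107), and its sign turned after quantile normalization (-0.30). With 1 RPKM added, the increases of Gpnmb (0.36) and Fn1 (0.42) were under 1.5-fold, and that of Gpnmb was also lost after quantile normalization (0.53). Lgals3 did not pass the test, with a difference of 0.65 (SE 0.29, adjusted p = 0.183), and neither did Msr1 without the limit on the mean (0.24, SE 0.28, adjusted p = 0.633). Saa3 was at 0 in both groups, so no fold is given. In 5 of the 7 genes every TPEN library was above every Ctrl library, as in 18.1% of all genes tested. A test against a fold change of 1.5 left Arg1 and Spp1.

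**Figure D2:**
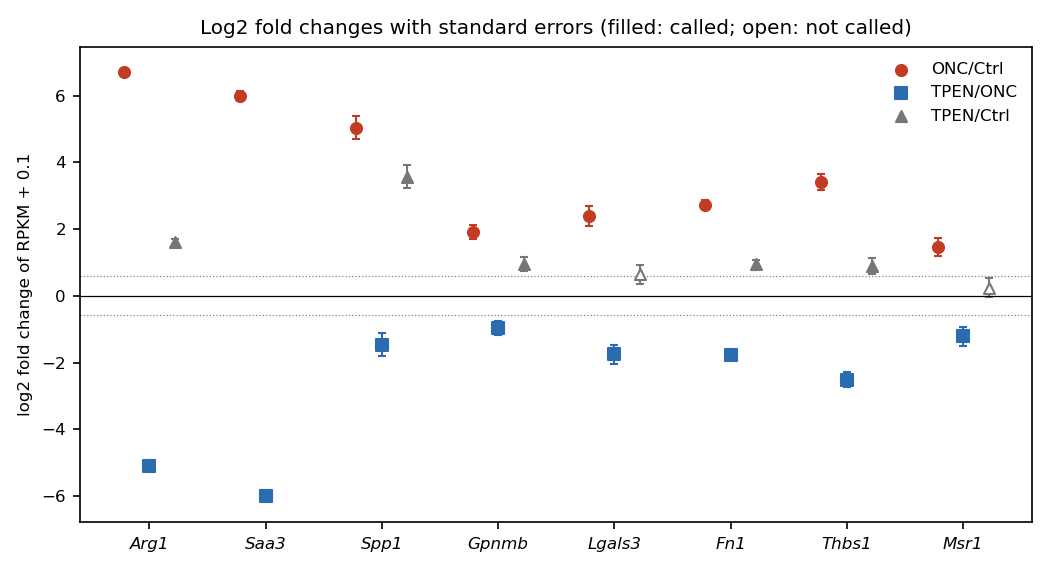
Log2 fold change of RPKM + 0.1 (vertical axis) of each gene in ONC/Ctrl (circles), TPEN/ONC (squares) and TPEN/Ctrl (triangles), with the standard error as whiskers. Dotted lines mark a fold change of 1.5, filled symbols passed the test, the values of Msr1 come from the fit without the limit on the mean, and the values of Saa3 depend on the added 0.1 RPKM, with none for TPEN/Ctrl, where both groups were at 0. Arg1 goes from 6.71 in ONC/Ctrl to -5.10 in TPEN/ONC, and Spp1 keeps the highest TPEN/Ctrl value at 3.57.

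Pan-macrophage markers moved in the same directions. Of these, 12 passed the limit on the mean, and their log2 fold changes were 2.59 to 4.95 in ONC/Ctrl and -2.09 to -0.59 in TPEN/ONC. All 12 were upregulated in ONC/Ctrl, and 8 of the 12 were downregulated in TPEN/ONC. The 8 tested microglia markers, between 1.50 and 3.69 in ONC/Ctrl, were all upregulated there, and only Tmem119 was downregulated in TPEN/ONC (-0.99, limma adjusted p = 0.0388). Cd14, Laptm5 and Tmem119 passed the limit on the mean only through ONC, so the counts of these markers are descriptions. Arg1 lay above the range of the pan-macrophage markers in ONC/Ctrl and below it in TPEN/ONC, with 0.1 RPKM added and also with 1 RPKM, where the ranges were 0.998 to 3.73 and -1.90 to -0.33 and Arg1 was at 4.97 and -4.29. Spp1 (5.03) exceeded the highest marker, Lyz2 (4.95), by less than its SE in ONC/Ctrl, and with 1 RPKM added it lay within the range (2.71). Thbs1 lay below the range in TPEN/ONC with 0.1 RPKM added and within it with 1 RPKM (-1.01). Gpnmb (1.92) and Lgals3 (2.40, by less than its SE) lay below the range in ONC/Ctrl, also with 1 RPKM added (0.858 and 0.989). Both lay within it in TPEN/ONC, and Fn1 lay within it in both comparisons. In ONC/Ctrl the place of Saa3 depends on the added constant, above the range with 0.1 RPKM and within it with 1 RPKM. In TPEN/ONC it lay below the range with both, at -5.99 and -2.86, values that the constant sets in part.

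**Figure D3:**
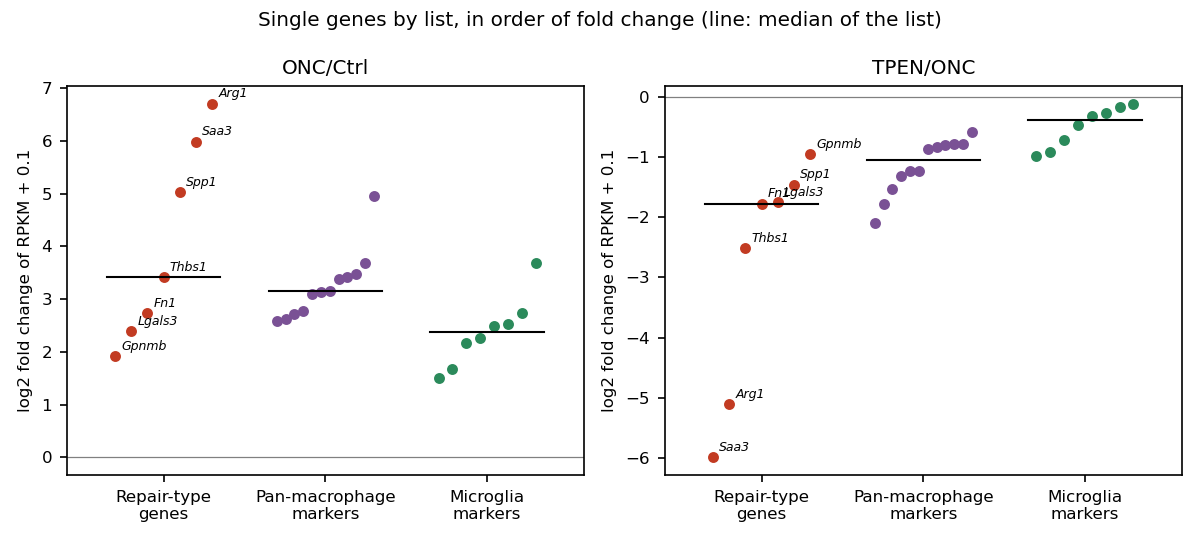
Log2 fold change of RPKM + 0.1 in ONC/Ctrl (left) and TPEN/ONC (right) for the 7 tested repair-type genes, 12 pan-macrophage markers and 8 microglia markers, in order within each list. Each point is a gene and each line the median of its list, 3.41, 3.14 and 2.37 on the left and -1.78, -1.05 and -0.39 on the right.

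To set each gene against the amount of myeloid RNA, the log2 ratio of its level to the summed level of the 15 pan-macrophage markers was taken within each library, with 0.1 RPKM added to both. For Arg1 the ratio was -1.57, -1.58 and -1.56 in ONC, -5.58, -5.55 and -5.78 in TPEN and -4.40, -4.61 and -5.00 in Ctrl. The ratio in each TPEN library was thus below that in the ONC libraries and also below that in the Ctrl libraries. The second did not hold against microglia markers, where TPEN and Ctrl overlapped (TPEN minus Ctrl of -0.02, against -0.97 with pan-macrophage markers). The ratio was 16.8-fold lower in TPEN than in ONC, a log2 difference of -4.07, and it lay between -4.72 and -3.27 under each alternative tried. The exact permutation test over the 3 groups gave p = 0.00357, the smallest it can give for 3 groups of 3 (0.0357 with microglia markers), and between 2 groups p cannot go below 0.1. The test was run for 7 genes.

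The other genes had smaller differences of this ratio. The log2 difference of the ratio, TPEN minus ONC, was -0.74 for Fn1 and -0.43 for Spp1, and for both the TPEN libraries lay below all ONC libraries (two-sided exact permutation test between the groups, p = 0.1 each, the smallest possible). With 1 RPKM added these differences were -0.16 and -0.15, and with microglia markers -1.40 and -1.08. Thbs1 (-1.48) and Lgals3 (-0.71) were lower in all TPEN libraries too with the same p by that exact test, but with 1 RPKM added in place of 0.1 their differences turned to 0.02 and 0.22. For Gpnmb the TPEN and ONC libraries overlapped, with a difference of 0.08 (exact permutation test, p = 0.7). Between ONC and Ctrl the ratio of Arg1 was higher in each ONC library (3.10, p = 0.1 by the exact test). So was that of Spp1 (1.43, p = 0.1 by the exact test), which turned to -0.78 with 1 RPKM added, while Thbs1 overlapped (-0.19, p = 0.4 by the exact test). Those of Gpnmb (-1.69), Lgals3 (-1.21) and Fn1 (-0.87) were lower in each ONC library. With microglia markers in place of pan-macrophage markers, Lgals3 (0.39) and Fn1 (0.73) turned sign in this comparison. The ratio of Saa3 in Ctrl and TPEN rests on the added 0.1 RPKM alone and is not given.

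**Figure D4:**
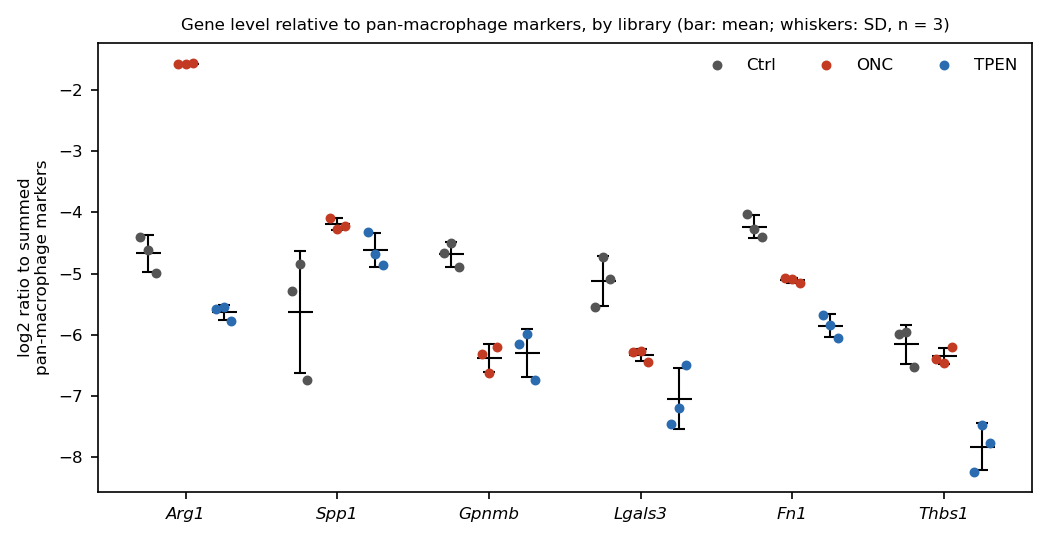
Log2 ratio of gene level to the summed level of 15 pan-macrophage markers (vertical axis) in each library, for the 6 tested genes other than Saa3. Points are libraries, bars are means and whiskers SD (n = 3). The ratio of Arg1 in ONC (mean -1.57) stands apart from that in TPEN (mean -5.64), and the points of Gpnmb in ONC and TPEN overlap.

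The substrate and products of arginase 1 are handled by the genes of arginine and polyamine metabolism, and 15 of 16 such genes were tested. Only Slc7a1, which encodes an importer of arginine (0.61, limma adjusted p = 0.00848), and Srm, which encodes spermidine synthase (0.68, adjusted p = 0.0225), were upregulated in ONC/Ctrl. No gene of this list was downregulated in TPEN/ONC by limma or by voom, and 3 genes had a lower level with an unadjusted p below 0.05. Over all genes tested, 1.21% were downregulated in TPEN/ONC by limma, so the absence of such calls sets this list little apart. Arg2, the mitochondrial arginase, had mean levels of 6.32 ± 0.899, 5.59 ± 0.730 and 5.54 ± 0.200 RPKM in Ctrl, ONC and TPEN (SD, n = 3). Its differences were -0.17 in ONC/Ctrl (SE 0.12, adjusted p = 0.358) and -0.01 in TPEN/ONC (SE 0.12, adjusted p = 0.987). The median log2 fold change of this list was 0.11 in ONC/Ctrl and -0.01 in TPEN/ONC, beside 0.02 and -0.01 over all genes tested. Nos2, inducible nitric oxide synthase, which competes with arginase for arginine, was below the limit on the mean. It had 0, 2 and 3 reads in Ctrl, 57, 26 and 40 in ONC and 0, 1 and 0 in TPEN, so that its reads were high in the same libraries as those of Arg1.

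Interleukin 4 and interleukin 13 act through IL-4 receptor α and STAT6, and interleukin 10 through its own receptor and STAT3. Of 21 genes of these pathways 13 were listed and 11 tested, of which 6 were upregulated in ONC/Ctrl. In TPEN/ONC 3 of the 11 were downregulated. Jak3, Stat6 and Cebpb passed the limit on the mean only through ONC, so these counts and the medians below are descriptions. The largest increases were those of Il10ra (3.00) and Jak3 (2.74), the genes of an interleukin 10 receptor chain and of a kinase that relays interleukin 4, followed by Cebpb (2.06) and Stat3 (1.97). Cebpb, the gene of C/EBPβ, fell by 1.24 in TPEN/ONC (limma adjusted p = 0.0190), and Il10ra fell by 1.06 (adjusted p = 0.0208). Stat3 did not pass the test there (-0.07, adjusted p = 0.404). Il4, the gene of interleukin 4 and named after its values were seen, had means of 1.62, 1.15 and 1.12 RPKM in Ctrl, ONC and TPEN. Its difference in ONC/Ctrl, -0.45, did not pass the test (adjusted p = 0.0838). Stat6 had mean levels of 0.256 ± 0.00853, 1.21 ± 0.0441 and 0.666 ± 0.0731 RPKM in Ctrl, ONC and TPEN (SD, n = 3). It rose by 1.88 in ONC/Ctrl (SE 0.13, adjusted p = 9.05e-06) and fell by 0.78 in TPEN/ONC (SE 0.13, adjusted p = 0.00780). Il4ra, below the limit on the mean, went from 0.170 to 0.786 and 0.398 RPKM in Ctrl, ONC and TPEN, with differences of 1.73 (adjusted p = 4.01e-05) and -0.84 (adjusted p = 0.0111) in the fit without that limit. The median log2 fold change of the list was 1.88 in ONC/Ctrl and -0.55 in TPEN/ONC.

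Of 33 other markers of alternative activation only 14 were listed and 7 tested. Retnla, Chil4 and Cd163 were not analysed here. In ONC/Ctrl 5 of the 7 were upregulated, and in TPEN/ONC 3 of the 7 were downregulated. Tgfbi and Trem2 passed the limit on the mean only through ONC, so these counts and the medians below are descriptions. Tgfbi encodes a matrix protein induced by TGF-β, and it had the largest changes of this list in both comparisons. It had mean levels of 0.0467 ± 0.0240, 4.42 ± 0.149 and 0.434 ± 0.136 RPKM in Ctrl, ONC and TPEN (SD, n = 3), with log2 fold changes of 4.96 in ONC/Ctrl (SE 0.21, limma adjusted p = 2.21e-07) and -3.11 in TPEN/ONC (SE 0.21, adjusted p = 2.76e-05). Hmox1, the gene of heme oxygenase 1, which is also induced by oxidative stress in many cells, rose by 2.99 and fell by 2.40 (adjusted p = 1.55e-08 and 3.59e-07). Trem2, a receptor of phagocytes and microglia, rose by 2.28 in ONC/Ctrl, and its difference in TPEN/ONC was -0.57 (adjusted p = 0.199). Tgm2, the gene of transglutaminase 2, rose by 2.24 and fell by 0.76. Vegfa, named after its values were seen, went the other way, with means of 34.0, 25.9 and 27.5 RPKM in Ctrl, ONC and TPEN. Its difference in ONC/Ctrl was -0.39 (limma adjusted p = 1.49e-05), which is under 1.5-fold, and in TPEN/ONC 0.09 (adjusted p = 0.121). F13a1, which encodes a subunit of coagulation factor XIII, was chosen after its values were seen. It had 1, 0 and 0 reads in Ctrl, 119, 114 and 80 in ONC and 6, 10 and 4 in TPEN. The medians of the tested genes stood at 2.24 in ONC/Ctrl and at -0.57 in TPEN/ONC.

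Genes of the acute phase and receptors of serum amyloid A were set beside Saa3. Of 18 such genes 7 were listed and 4 tested, while Saa1 and Saa2 were not analysed here. C3, the gene of complement component 3, rose by 2.66 in ONC/Ctrl and fell by 2.04 in TPEN/ONC (limma adjusted p = 9.51e-06 and 2.70e-04). It passed the limit on the mean only through ONC, so the medians below are descriptions. Serpina3n, the gene of a protease inhibitor of reactive glia, rose by 2.69 in ONC/Ctrl, and its difference in TPEN/ONC was -0.07 (SE 0.22, adjusted p = 0.898). Below the limit on the mean, Hp, Lcn2 and Tlr2, named after their values were seen, rose in ONC/Ctrl in the fit without that limit (2.76, 0.75 and 2.09). Hp, the gene of haptoglobin, and Lcn2, the gene of lipocalin 2, fell there in TPEN/ONC (-2.37 and -1.57, limma adjusted p = 0.00790 and 1.91e-04), and Tlr2 did not pass the test (-0.65, adjusted p = 0.150). The medians of the tested genes were 1.54 and -0.06.

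Receptors of osteopontin, fibronectin and thrombospondin 1 were tested for 9 of 18 genes, and 3 were upregulated in ONC/Ctrl. They were Cd44 (1.62, limma adjusted p = 2.85e-04), Cd47 (0.92, adjusted p = 4.77e-04) and Itgb5 (0.66, adjusted p = 0.00644), which encode a receptor of osteopontin and hyaluronan, a receptor of thrombospondin 1 and an integrin chain. None of the 9 was downregulated in TPEN/ONC by limma or by voom, and 4 had a lower level with an unadjusted p below 0.05. Among these 4, Itgb5 (-0.51, limma adjusted p = 0.0461) missed only the limit of 1.5-fold. Over all genes tested, 1.21% were downregulated by limma, so the absence of such calls sets this list little apart. Cd44 had mean levels of 1.22 ± 0.210 RPKM with vehicle and 1.23 ± 0.159 RPKM with TPEN after crush (SD, n = 3), a log2 difference of 0.02 (SE 0.19, adjusted p = 0.969). Itgav, an integrin chain that binds several of these ligands, did not pass the test in ONC/Ctrl (0.37, adjusted p = 0.121), and Cd36 was not analysed here. The medians were 0.38 in ONC/Ctrl and below 0.01 in size in TPEN/ONC.

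Among galectins and their partners, 6 of 10 genes were tested. Lgals9 (2.46), Lgals3bp (2.19), Lgals1 (1.55) and Mertk (1.01), the gene of a receptor for dying cells, were upregulated in ONC/Ctrl. Lgals1 (-1.23, limma adjusted p = 0.0295) and Lgals3bp (-0.78, adjusted p = 0.00462) were downregulated in TPEN/ONC. Lgals9, like Tgfbi below, passed the limit on the mean only through ONC, so the counts and medians of these lists are descriptions. Of 6 tested scavenger and mannose receptor genes, Cd68, the gene of a lysosomal protein of phagocytes that is also among the pan-macrophage markers, rose by 3.09 and fell by 1.24, and Scara3 rose by 0.63 in ONC/Ctrl. Matrix proteins and remodelling partners had 10 genes tested. Tgfbi, Cd63 (1.02), Adamts1 (0.75) and Sparc (0.70) were upregulated in ONC/Ctrl, and Tgfbi alone was downregulated in TPEN/ONC. The medians in TPEN/ONC were -0.44 for galectins and partners, 0.01 for scavenger receptors and -0.17 for matrix genes.

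Classical activation genes, the usual counterpart of the repair-type ones, were also higher in ONC. Of 24 genes 12 were listed and 10 tested, of which 7 were upregulated in ONC/Ctrl. In TPEN/ONC 3 of the 10 were downregulated. Il1b, Cybb and Tnf passed the limit on the mean only through ONC, so these counts and the medians below are descriptions. Cybb, the gene of the phagocyte NADPH oxidase chain, rose by 3.46 and fell by 2.07 (limma adjusted p = 2.24e-05 and 0.00248). Il1b rose by 3.20 and fell by 2.54 (adjusted p = 3.27e-06 and 6.26e-05). Il1a rose by 1.96 and fell by 1.09, and Tnf rose by 2.47, with a difference in TPEN/ONC of -1.33 (SE 0.48, adjusted p = 0.138). The medians of the list stood at 1.66 in ONC/Ctrl and at -0.53 in TPEN/ONC. No tested gene of the 9 lists was downregulated in ONC/Ctrl or upregulated in TPEN/ONC by limma or by voom. Such calls were rare over all genes tested too, at 0.752% and 0.818% by limma, so their absence here sets these lists little apart. Of the 76 genes tested, 5 had a lower level in ONC/Ctrl and 5 a higher level in TPEN/ONC with an unadjusted p below 0.05. Some of these also had a limma adjusted p below 0.05 and missed only the limit of 1.5-fold. Named after their values were seen, they were Vegfa (-0.39), Pla2r1 (-0.31) and Sdc4 (-0.21) in ONC/Ctrl. In TPEN/ONC they were Adamts1 (0.35), Pla2r1 (0.25) and Itga4 (0.21). Stab2, a scavenger receptor gene below the limit on the mean and named after its values were seen, was lower in ONC than in Ctrl in the fit without that limit (-0.69, adjusted p = 0.0162).

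The patterns of Arg1 and Spp1 were each compared with those of the 12143 genes that reached a mean of 1 RPKM, by Pearson correlation of log2(RPKM + 0.1) over the 9 libraries. The libraries form 3 groups, so these values describe mostly the order and spacing of the groups. Hmox1 was most like Arg1 (r = 0.997), followed by the chaperone genes Hsp90ab1 (0.993) and Hspa8 (0.992), the chemokine gene Cxcl2 (0.991) and Fn1 (0.990). Their ranges of level were very different. Hsp90ab1 had mean levels of 269.6, 357 and 293.5 RPKM in Ctrl, ONC and TPEN, and Cxcl2 had 0.0423, 3.89 and 0.124 RPKM. The genes most like Spp1 were Socs3 (0.997), an inhibitor of cytokine signalling, Slc25a37 (0.991), a mitochondrial iron importer, Tmsb4x (0.991), an actin-binding peptide, Cx3cr1 (0.991), the fractalkine receptor of microglia, and Anp32e (0.988). The mean level of Cx3cr1 was 0.634, 4.01 and 2.87 RPKM in Ctrl, ONC and TPEN. The 2 sets of 5 genes shared no gene.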

How the data were processed

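RNA was measured in 9 libraries of cells sorted as RGCs, 3 each of Ctrl, ONC and TPEN. The authors made stranded mRNA libraries with molecular identifiers, trimmed reads with Trimmomatic 0.36 (per the labels), mapped them to GRCm38/mm10 with STAR and deposited RPKM values for 15228 genes, with the p-values, false discovery rates and log2 fold changes of their own comparisons, which were not used. The counting program, the annotation, the use of strand and the treatment of molecular identifiers are not given in the sources used here. RPKM multiplied by gene length gave whole reads (within 0.02 reads) for 100% of values. Total reads were 20077226 to 23109754 in Ctrl, 22967138 to 22986065 in ONC and 19946993 to 22217283 in TPEN. Intervals of counting were not used, and the floor of 3 reads covers counting error only.

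Groups came from the sample titles. The fit took the log2(RPKM + 0.1) values of all 9 libraries for the 13566 genes whose mean reached 0.5 RPKM. It was made in limma 3.58.1 (R 4.3.3), letting the prior variance follow the mean level, and Benjamini-Hochberg adjustment ran over all these genes. The study's count test was replaced by limma because the table holds RPKM. The scripts were tested on simulated data. With voom on the whole reads, 659 increases and 129 decreases were called for ONC/Ctrl, 151 and 219 for TPEN/ONC, and 533 and 86 for TPEN/Ctrl. Ratios to marker sums were compared by exact permutation tests. The alternatives were other normalization, limits, added constants, a fit of 6 libraries, a replicate block, a test against a fold change of 1.5, voom and the omission of each library. The genes and lists were chosen with earlier results of these data known. Named from each list were its called genes, at most the 4 with the largest change, and members that define it. Promoter sequences are from RefSeq (GRCm38.p6), and 4 of the 10 genes matched.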

Additional observations from a re-analysis of the deposited data

How the results depend on the processing

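All directions of the 7 tested genes in ONC/Ctrl and TPEN/ONC held under the 17 alternatives run (16 where the gene has no value with a limit of 1 RPKM). Of the fold changes recomputed, 332 kept direction and side of the threshold, 41 lost the call and 3 reversed. With a mean of at least 1 RPKM, where 4 genes were tested, 4 were upregulated in ONC/Ctrl, 4 downregulated in TPEN/ONC and 3 upregulated in TPEN/Ctrl, since fewer genes entered. A test against a fold change of 1.5 gave 4 in TPEN/ONC and 2 in TPEN/Ctrl. In TPEN/Ctrl, quantile normalization gave 3 and an added 1 RPKM gave 2. The cause was not tested. Quantile normalization reversed TPEN/Ctrl for Lgals3 (-0.17), Thbs1 (-0.30) and, without a limit on the mean, Msr1 (-0.17, an alternative chosen after seeing the data). With any 1 library left out, 7 genes were upregulated in ONC/Ctrl, 5 to 7 downregulated in TPEN/ONC and 4 to 5 upregulated in TPEN/Ctrl. Same-numbered libraries had correlations of their deviations of -0.0623 to 0.0268, so no shared deviation was seen. These values cannot tell whether the numbers stand for a pairing, which the titles do not state. The replicate block gave 7, 6 and 4 genes in the 3 comparisons, and Gpnmb and, without a limit on the mean, Msr1 lost the call in TPEN/ONC and Thbs1 in TPEN/Ctrl (adjusted p = 0.0564, 0.0513 and 0.0642). Over all alternatives the adjusted p of these 3 reached 1 and went down to 1.40e-04, 0.00317 and 0.00428. Ratios to myeloid markers reversed with 1 RPKM added for Saa3 (-0.63) and Spp1 (-0.78) in ONC minus Ctrl and for Lgals3 (0.22) and Thbs1 (0.0151) in TPEN minus ONC. With microglia markers they reversed for Gpnmb in TPEN minus ONC (-0.57) and for Lgals3 (0.39), Fn1 (0.73) and Thbs1 (1.41) in ONC minus Ctrl, and with the mean of log2 marker values for Thbs1 (0.32). Gpnmb in TPEN minus ONC was -0.0627 without Lyz2 among the markers, chosen after seeing the data, and -0.0699 to 0.304 with 1 library left out. Depth limits Msr1, Thbs1 and Lgals3 between Ctrl and TPEN, since none of them had more than 60 reads in the 3 libraries of either group.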
